A study of Mus musculus with 6 samples.

Results

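Genes of glycolysis, glucose uptake and the growth program driven by the transcription factor Myc were examined in thymocytes at the double-negative 1 (DN1) stage from mice labelled Tle134-deficient and from WT mice. The set held 34 genes, named by a fixed list of symbols, of 24318 gene symbols in the tables. Every one of the 34 was found in all 6 tables, and the values of rows carrying the symbol were added. Of these, 31 passed the filter on low values (1 FPKM or more in at least 3 libraries) and were tested; Aldoc, Eno2 and Slc16a3 did not pass. FPKM counts the fragments of a gene relative to its transcript length and to all mapped fragments of the library.

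The compared groups were 3 libraries labelled Tle134-deficient (titled as Tle134 mutant, KO1 to KO3) and 3 WT libraries. All came from mice aged 5 to 8 weeks, and all cells were sorted as Lin-, TCRb-, CD8a-, CD25-, CD44+ thymocytes. The name Tle134 is read here as the Groucho/Tle corepressor genes Tle1, Tle3 and Tle4. The alleles, any Cre driver and the number of animals behind a library are not stated in the sources used here. The p-values therefore reflect only variation among these 6 libraries, part of which may be technical.

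Glycolysis splits glucose into pyruvate in the cytosol. Glucose enters through Slc2a transporters, hexokinases trap it, phosphofructokinase commits it to the pathway, and the enzymes from Gapdh to Pkm recover ATP; lactate dehydrogenase and the Slc16a carriers then turn pyruvate into lactate and export it. Myc, paired with Max, and the oxygen-regulated factor Hif1a are known to activate many of these genes, as well as genes of amino acid uptake, polyamine synthesis and ribosome assembly. In developing thymocytes this program is known to accompany growth and division and to be turned down in resting cells.

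The libraries were checked before the genes were compared. In the libraries labelled Tle134-deficient, Tle1, Tle3 and Tle4 averaged 11.3, 72.9 and 26.9 FPKM, against 2.06, 28.5 and 17.1 FPKM in WT, which is the opposite direction to the label (limma adjusted p = 0.0954, 0.234 and 0.726). These whole-gene values include any exons that a deletion leaves in place. The gate gene Cd44 was at 32.5 to 74.3 FPKM in the labelled-deficient libraries and at 27.5 to 53.4 FPKM in WT, and Cd8a was at 0 to 0.419 FPKM in the labelled-deficient libraries and at 0.274 to 2.48 FPKM in WT. Il2ra, which encodes CD25, was low but present, at 4.22 to 7.36 FPKM in the labelled-deficient libraries and at 1.69 to 3.59 FPKM in WT. Fragment totals were inferred by taking each deposited interval as 2 SD to either side of a fragment count. For named genes together they were 1.51e+06 to 4.34e+06 in the labelled-deficient libraries and 1.42e+06 to 3.24e+06 in WT. They are rough, since some intervals are wider than a count would give, and read totals are unknown.

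None of the 31 tested members rose or fell in the libraries labelled Tle134-deficient (limma on log2(FPKM + 1), adjusted over all 11063 genes tested, threshold 0.05), while 0.642% of all genes tested passed as higher, 0.108% as lower and 0.750% in either direction. The smallest adjusted p among the members was 0.299, for Pfkm. At an unadjusted p under 0.05 there were 3 members, Pfkm, Mxd4 and Odc1, which is 9.68% of the members tested beside 10.0% of all genes tested (5.68% higher and 4.35% lower). The differences were above 0 for 13 members and below 0 for 18. Their median was -0.11 on the log2(FPKM + 1) scale, beside 0.04 over all genes tested, but it turned positive when labelled-deficient replicate 2 (0.26) or WT replicate 3 (0.28) was left out. Differences ran from -1.52 (Pfkm) to 1.18 (Odc1). In bulk RNA, fewer cells of a type and less RNA per cell cannot be told apart.

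**Figure D1:**
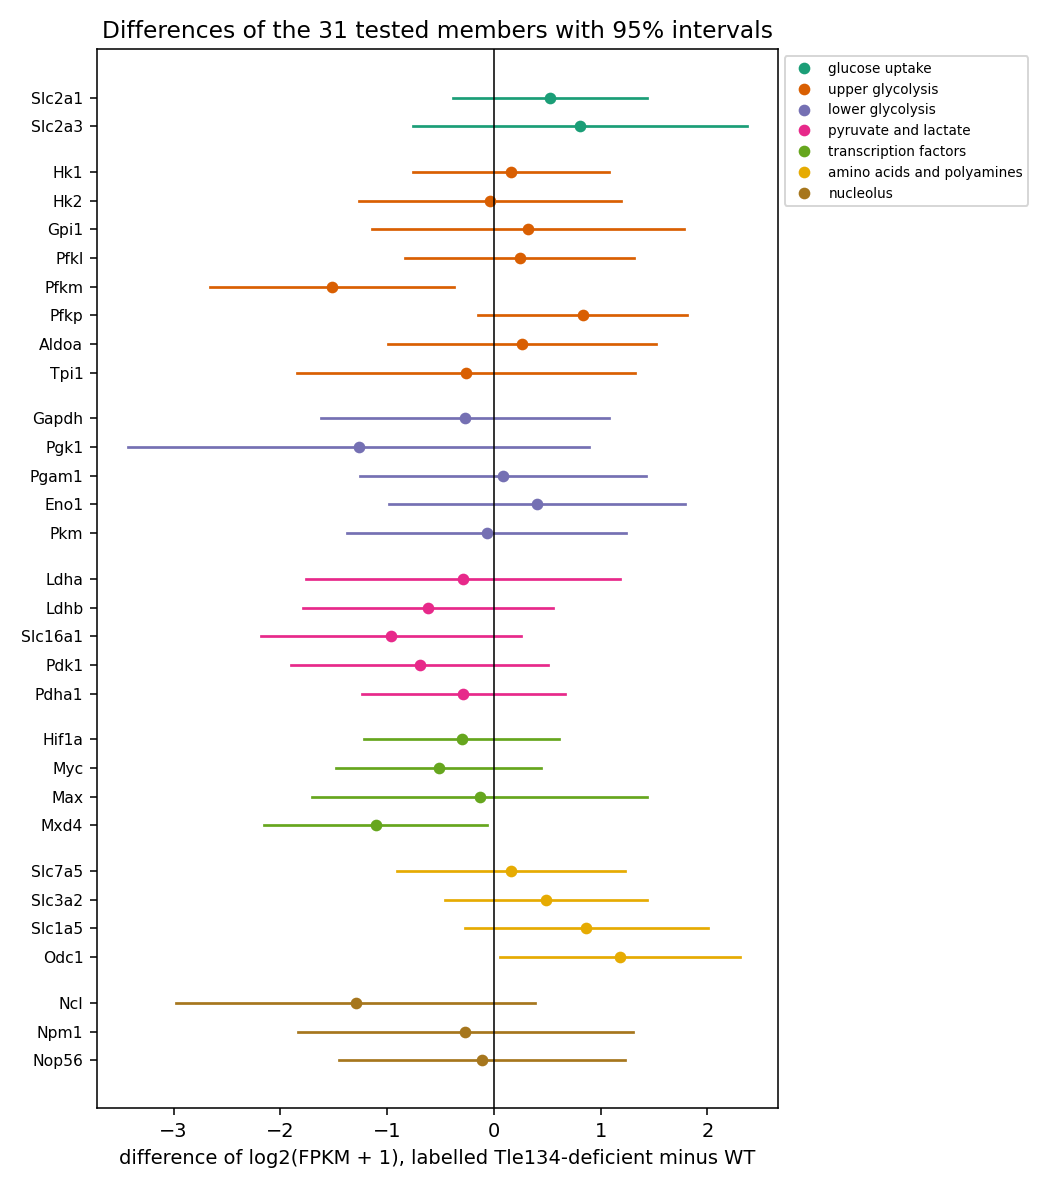
Difference of mean log2(FPKM + 1), labelled Tle134-deficient minus WT, for the 31 tested members (points) with the 95% confidence interval of the limma fit (lines), coloured by role, n = 3 libraries per group. The intervals of Pfkm, Mxd4 and Odc1 leave out 0, and no member passed after adjustment over all genes (smallest adjusted p = 0.299).

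In 4 of the 31 members the groups did not overlap (12.9%, beside 15.2% of all genes tested, 8.67% higher and 6.56% lower). Slc2a1 and Odc1 were higher in every labelled-deficient library, and Pfkm and Mxd4 were lower. After each library was rescaled by its median ratio, Odc1, Pfkm and Mxd4 still did not overlap, Slc2a1 did, and Pfkp and Slc1a5 also stood apart (16.1% of members, beside 16.0% of all genes tested); after rescaling to the sum of all units no member stood apart, beside 4.62% of all genes tested.

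Pfkm encodes the muscle-type subunit of phosphofructokinase (mm9 chromosome 15, 97923020 to 97962878). It was at 0.469, 2.72 and 1.49 FPKM in labelled-deficient replicates 1 to 3, against 5.99, 5.29 and 6.25 FPKM in WT replicates 1 to 3. The highest labelled-deficient value thus lay below the lowest WT value. The log2 difference was -1.52 ± 0.51 (SE, adjusted p = 0.299) with a 95% interval of -2.66 to -0.37. The value of WT replicate 1 is poorly determined, with a deposited interval of 0 to 66.8 FPKM; without that library the difference was -1.50.

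Odc1 encodes ornithine decarboxylase, the rate-limiting enzyme of polyamine synthesis and a textbook Myc target (mm9 chromosome 12, 17551679 to 17558425). It was at 165.4, 57.3 and 65.7 FPKM across the labelled-deficient group, against 33.8, 34.2 and 44.1 FPKM in WT. Labelled-deficient replicate 1 was far above every other library in FPKM. Its bounds imply 403 fragments, against 1568 in labelled-deficient replicate 2, of inferred totals of 1.51e+06 and 3.16e+06. Such inferred numbers are rough, and the reason for the mismatch was not tested. The log2 difference was 1.18 ± 0.50 (SE, adjusted p = 0.456), and 0.71 without labelled-deficient replicate 1.

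Mxd4 encodes a partner of Max that represses genes with Myc binding sites (mm9 chromosome 5, 34519209 to 34530380). It was at 36.3, 16.7 and 13.5 FPKM across the labelled-deficient group, against 37.9, 39.7 and 59.6 FPKM in WT. The groups were separated narrowly, since labelled-deficient replicate 1 lay just under WT replicate 1. The log2 difference was -1.11 ± 0.47 (SE, adjusted p = 0.455), and -0.63 with both libraries numbered 3 left out, an alternative chosen after seeing the data.

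Slc2a1, the main glucose transporter of activated lymphocytes (mm9 chromosome 4, 118781350 to 118810140), was at 10.0, 9.64 and 7.06 FPKM across the labelled-deficient group, against 6.11, 4.90 and 6.53 FPKM in WT. The gap between the groups was small, and the deposited interval of labelled-deficient replicate 3 (5.94 to 8.17 FPKM) covers 2 of the WT values. The log2 difference was 0.53 ± 0.41 (SE, adjusted p = 0.762).

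Promoters are shown for the 3 members with the smallest p-values and for Ldha, whose window shown held 2 CACGTG motifs. The letters are the 250 bases before the annotated start, from RefSeq on GRCm38.p6, a different build from the mm9 coordinates above. Capitals mark ACGTG and GCGTG on either strand; CACGTG, the E-box letters bound by Myc and Max, contains ACGTG and reads the same on both strands.
Pfkm, chr15:98092339-98092588, plus strand: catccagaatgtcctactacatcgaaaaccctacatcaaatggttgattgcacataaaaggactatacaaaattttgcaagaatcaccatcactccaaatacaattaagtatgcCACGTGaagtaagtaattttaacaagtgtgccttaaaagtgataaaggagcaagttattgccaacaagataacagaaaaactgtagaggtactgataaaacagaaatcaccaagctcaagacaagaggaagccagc
Mxd4, chr5:34187711-34187960, minus strand: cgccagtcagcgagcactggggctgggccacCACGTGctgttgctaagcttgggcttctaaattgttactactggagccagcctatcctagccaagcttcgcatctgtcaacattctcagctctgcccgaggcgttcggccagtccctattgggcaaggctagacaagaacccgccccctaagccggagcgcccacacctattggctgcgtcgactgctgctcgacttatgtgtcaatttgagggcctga
Odc1, chr12:17544623-17544872, plus strand: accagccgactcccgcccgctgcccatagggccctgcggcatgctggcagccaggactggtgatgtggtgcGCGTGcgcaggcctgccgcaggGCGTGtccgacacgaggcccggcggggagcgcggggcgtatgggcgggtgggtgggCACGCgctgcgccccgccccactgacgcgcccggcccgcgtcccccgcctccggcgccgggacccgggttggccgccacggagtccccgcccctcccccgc
Ldha, chr7:46845554-46845803, plus strand: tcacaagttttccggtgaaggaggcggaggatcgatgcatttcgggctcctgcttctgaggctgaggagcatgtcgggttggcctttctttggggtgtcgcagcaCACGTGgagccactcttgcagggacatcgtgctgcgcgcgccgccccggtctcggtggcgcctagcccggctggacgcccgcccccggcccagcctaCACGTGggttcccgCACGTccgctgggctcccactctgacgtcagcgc

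Pfkm has 4 annotated starts and Ldha has 2, and for each the window shown was chosen because it holds CACGTG. For Pfkm this is the most upstream window, with the motif 136 bases before the start. Only 5 member windows, of 5 genes, held the motif, so the other windows of Pfkm and Ldha lack it. The motif began 219 bases before the start in Mxd4 and 145 and 48 bases before it in Ldha, and it was not in the Odc1 window. Of 29 members with a RefSeq window, 5 (17.2%) held CACGTG in at least 1 window, namely Hif1a, Ldha, Mxd4, Pfkm and Slc16a1, beside 6.86% of all 27025 genes. ACGTG was in 13 of the 29 members (44.8%) beside 18.5% of all genes, and GCGTG in 16 (55.2%) beside 30.9%. Genes with several windows have more chances of a match; per window, CACGTG was in 12.2% of 41 member windows and 6.02% of all 32851. These are matches of letters only. Slc2a3, Myc, Slc7a5, Slc1a5 and Npm1 had no window.

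No gene of glucose uptake or of the upper steps of glycolysis passed the test. Besides Slc2a1, the second transporter, Slc2a3, was at 10.5, 10.2 and 28.0 FPKM across the labelled-deficient group, against 17.7, 11.8 and 1.94 FPKM in WT. The log2 difference of 0.80 rested on the libraries numbered 3: dropping WT replicate 3 left 0.00, and dropping labelled-deficient replicate 3 left 0.35. Hk1 and Hk2 encode the hexokinases. Hk1 ranged from 10.5 to 22.3 FPKM in the labelled-deficient libraries and from 11.3 to 15.6 FPKM in WT. Hk2, the isozyme known to be induced in growing cells, was at 4.78, 3.84 and 14.8 FPKM across the labelled-deficient group, against 9.86, 6.52 and 4.85 FPKM in WT (log2 difference -0.04 ± 0.55 SE, adjusted p = 0.996).

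Of the 8 upper-glycolysis genes tested, 5 differences lay above 0 and 3 below, with a median of 0.20. Pfkp, the platelet-type phosphofructokinase, was at 10.6, 13.7 and 15.9 FPKM across the labelled-deficient group, against 6.01, 4.83 and 11.5 FPKM in WT (log2 difference 0.83, adjusted p = 0.595). Only WT replicate 3 reached into the labelled-deficient range. Pfkl, the liver-type subunit, overlapped between the groups, at 5.65 to 15.9 FPKM in the labelled-deficient libraries and 5.99 to 10.6 FPKM in WT. Gpi1, which makes fructose phosphate, was at 33.3, 53.4 and 170.2 FPKM across the labelled-deficient group, against 32.9, 51.1 and 92.2 FPKM in WT; the WT replicate 3 value has a deposited interval of 0 to 1344 FPKM. Aldoa, the aldolase of most tissues, was at 42.8 to 131.9 FPKM in the labelled-deficient libraries and 40.9 to 104.3 FPKM in WT. Aldoc, its brain isozyme, stayed under 1 FPKM in all 6 libraries.

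The make-up of each isozyme family was read as a share of its summed FPKM within a library, which no rescaling of libraries can alter. Pfkm made up 1.74%, 12.3% and 5.88% of phosphofructokinase FPKM across the labelled-deficient group, against 32.2%, 32.8% and 22.1% in WT. The mean share was 6.64% ± 5.31 in the labelled-deficient libraries and 29.0% ± 6.05 in WT (SD, n = 3 each). The exact two-sided permutation p was 0.1, the smallest that 3 against 3 can give, and 0.75 after Benjamini-Hochberg adjustment over the 15 shares compared, a comparison added after the values were seen. Where a family is a pair, both shares give the same p, so the 15 are not separate comparisons. Pfkp took 39.3%, 62.1% and 62.5% in the labelled-deficient group, against 32.4%, 30.0% and 40.6% in WT. These shares are imprecise. The deposited intervals of Pfkp were 2.14 to 9.89, 2.87 to 6.80 and 4.53 to 18.4 FPKM in WT replicates 1 to 3. Those of Pfkm were 0 to 66.8 FPKM in WT replicate 1 and 0 to 0.963 FPKM in labelled-deficient replicate 1. Among the 7 families compared, Pfkm was the only gene whose shares did not overlap. Slc2a1 took 20.1% to 48.7% of the transporter pair in the labelled-deficient libraries and 25.6% to 77.1% in WT. Hk1 took 60.1% to 75.5% of the hexokinase pair in the labelled-deficient libraries and 58.2% to 76.2% in WT.

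**Figure D2:**
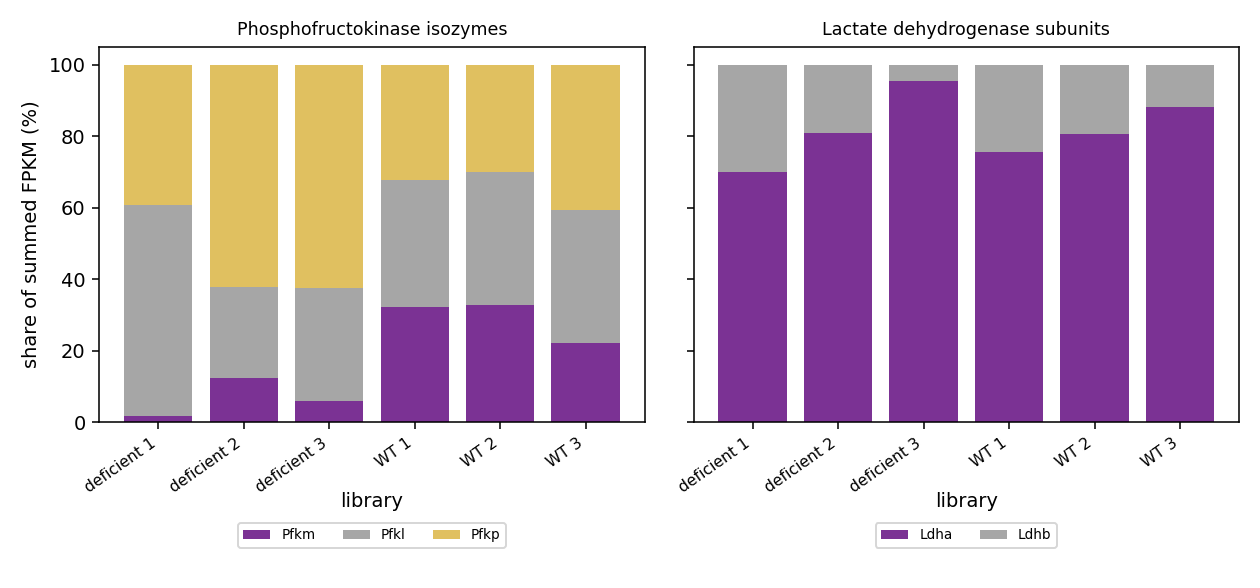
Share of summed FPKM (%) held by each phosphofructokinase gene (left) and each lactate dehydrogenase gene (right) in the 6 libraries, the 3 labelled Tle134-deficient ones left of the 3 WT ones; each bar is 1 library. Pfkm is at 1.74% to 12.3% in the labelled-deficient libraries and 22.1% to 32.8% in WT, and the Ldha share overlaps between groups.

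In the lower part of the pathway the highest values lay in the libraries numbered 3. Gapdh, Pgk1, Pgam1, Eno1 and Pkm were each highest in labelled-deficient replicate 3 and WT replicate 3. Their median log2 difference was -0.07, and no adjusted p was under 0.758. Gapdh, the most abundant glycolytic member in 5 of the 6 libraries, was at 167.9, 107.7 and 328.1 FPKM across the labelled-deficient group, against 168.3, 165.3 and 377.8 FPKM in WT. Pkm, the pyruvate kinase of proliferating and muscle cells, was at 86.6, 41.7 and 135.2 FPKM across the labelled-deficient group, against 69.8, 54.6 and 147.3 FPKM in WT. Replicate 3 of each group stood above the other libraries for both genes.

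Pgam1, the phosphoglycerate mutase of most tissues, was at 24.4, 20.4 and 68.1 FPKM across the labelled-deficient group, against 21.6, 20.4 and 64.1 FPKM in WT. Its value in replicate 3 was 3.04 times the mean of the other labelled-deficient libraries and 3.05 times the mean of the other WT libraries. Tpi1, the isomerase just above this part of the pathway, showed ratios of 4.73 in the labelled-deficient group and 4.01 in WT. Pgk1, which makes the first ATP of the pathway, was at 24.2, 15.5 and 60.2 FPKM across the labelled-deficient group, against 30.5, 26.5 and 409.1 FPKM in WT. Its log2 difference of -1.27 was -0.00 without WT replicate 3. It was -0.53 without both libraries numbered 3, an alternative chosen after seeing the data. In WT replicate 3 the bounds imply 190.9 Pgk1 fragments, against 1348 in labelled-deficient replicate 3, where the FPKM was lower. Eno1, counted together with Eno1b at the same locus, was at 44.5 to 135.0 FPKM in the labelled-deficient libraries and 29.8 to 115.1 FPKM in WT. Eno2, the neuronal enolase, was at 0 to 0.282 FPKM in the labelled-deficient libraries and 0.230 to 2.06 FPKM in WT.

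**Figure D3:**
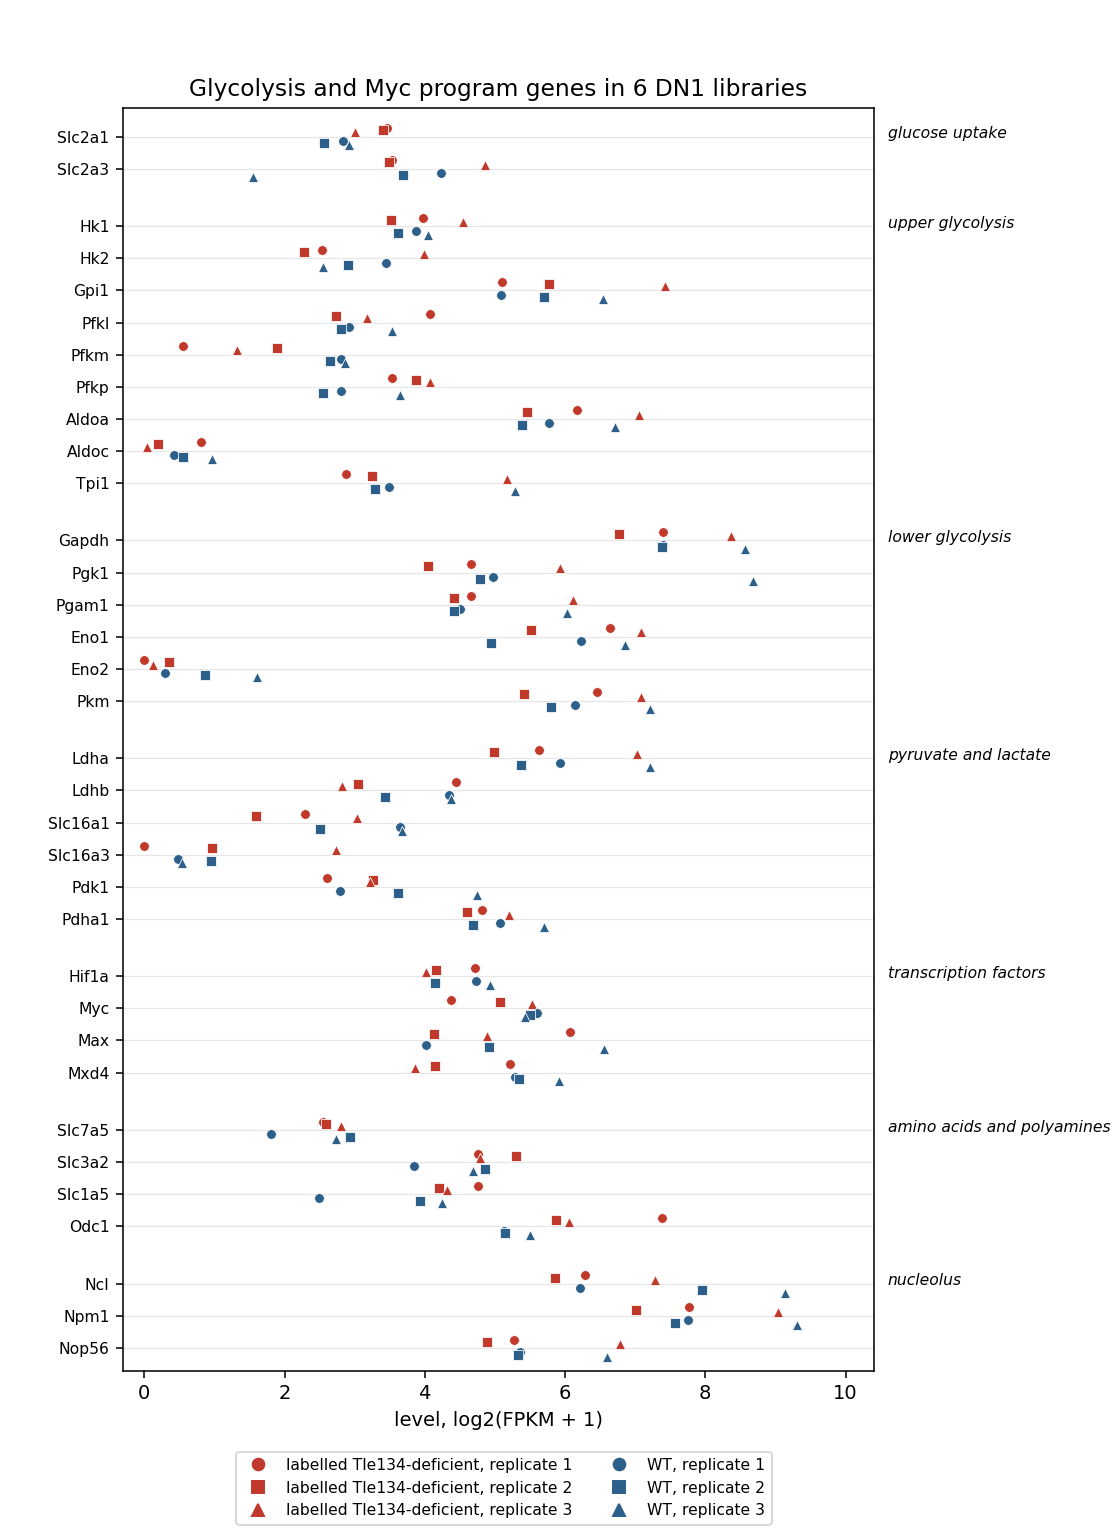
Level of the 34 members as log2(FPKM + 1) in the libraries labelled Tle134-deficient (red, upper row of each gene) and in WT (blue, lower row), with the replicate shown by the marker; each point is 1 library. The triangles of replicate 3 lie to the right in both groups for Gapdh, Pkm, Pgam1, Tpi1, Ldha, Npm1 and Nop56, while Pfkm, Mxd4, Odc1 and Slc2a1 separate by group.

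In 13 of the 31 tested members the 2 libraries numbered 3 held the highest values (41.9%), beside 20.8% of all genes tested. These 13 were Hk1, Gpi1, Aldoa, Tpi1, Gapdh, Pgk1, Pgam1, Eno1, Pkm, Ldha, Pdha1, Npm1 and Nop56. After rescaling by median ratio the count was 10 (32.3%), beside 10.6% of all genes tested. This ordering was looked for after the values were seen. None of the tested members of glucose uptake (2), of the transcription factors (4) or of amino acid and polyamine handling (4) was among the 13. These roles hold too few genes to be told apart from the share of all genes. The numbers in the titles are not taken to pair the libraries. Even so, the deviations of every library from its group mean correlated best with those of its own number (0.084, 0.182 and 0.174). Nothing in the labels gives a batch.

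Summed FPKM of myeloid markers and of cell cycle genes followed this ordering, while that of B-lineage and T-lineage markers did not. In labelled-deficient replicate 3 and WT replicate 3, the T-lineage sums were 241.9 and 1247 FPKM. The B-lineage sum of labelled-deficient replicate 3, 634.3 FPKM, was the lowest of its group. Summed FPKM of 13 monocyte, macrophage and neutrophil markers was 112.9, 127.1 and 1557 in the labelled-deficient libraries and 135.3, 302.2 and 626.1 in WT, highest in replicate 3 of each group. Mpo, which encodes the myeloperoxidase of neutrophil precursors, was at 53.7, 76.2 and 588.8 FPKM across the labelled-deficient group, against 84.0, 232.0 and 257.0 FPKM in WT. S100a9, a neutrophil calcium-binding protein gene, was at 0, 0 and 332.6 FPKM across the labelled-deficient group, against 0, 0 and 27.0 FPKM in WT. Not every myeloid marker was high in both libraries numbered 3. Itgam was at 39.2 FPKM in labelled-deficient replicate 3 and 0.771 FPKM in WT replicate 3, and Cebpe at 14.1 and 0 FPKM. Summed over 20 cell cycle genes, the values were 265.6, 232.9 and 617.8 FPKM across the labelled-deficient group, against 381.3, 367.8 and 643.7 FPKM in WT. Of the 13 myeloid markers 0 to 3 were listed at 0 in a labelled-deficient library and 2 in each WT library. Their part in the levels of the glycolytic genes was not tested.

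**Figure D4:**
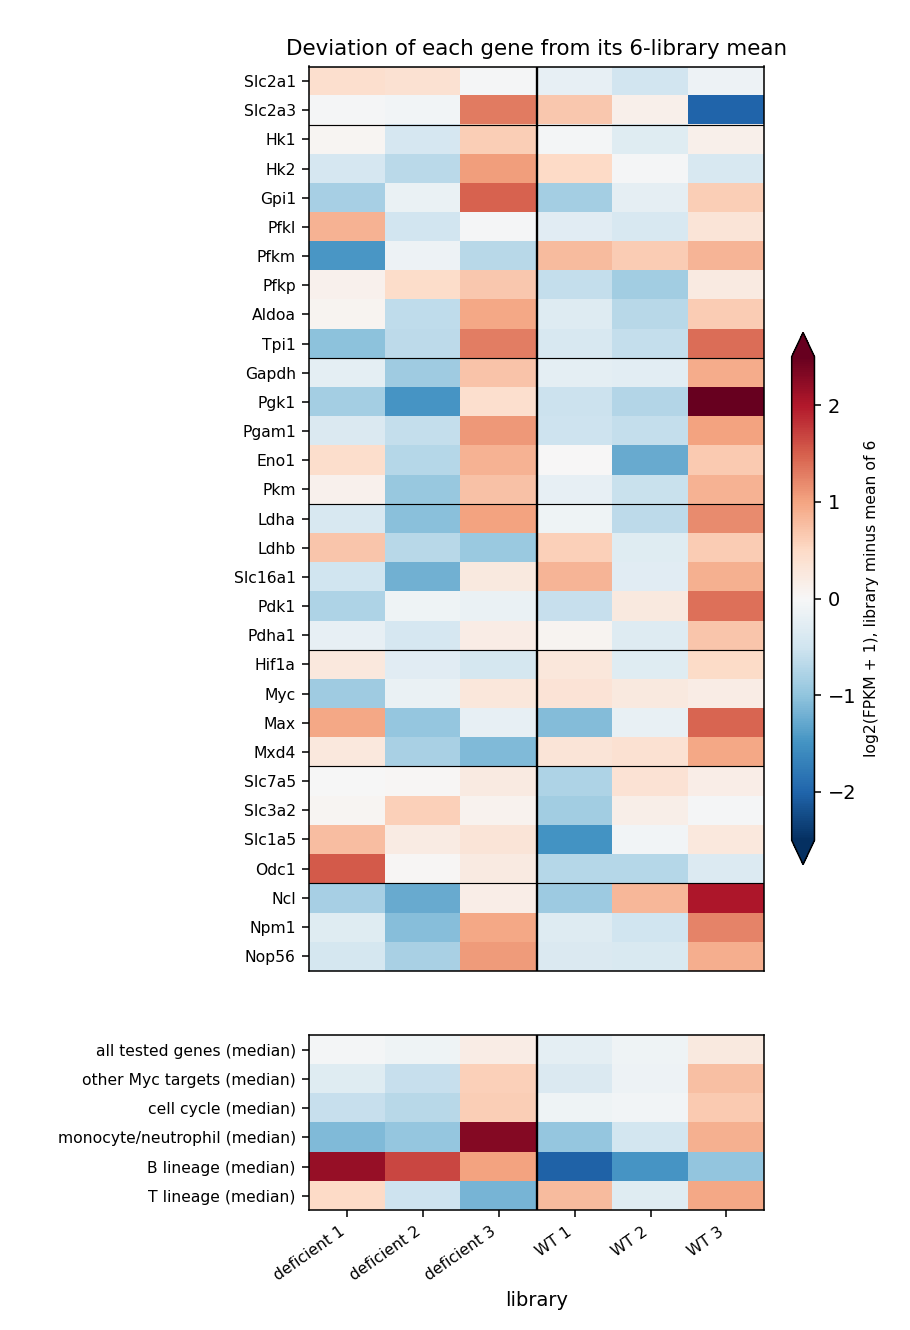
Deviation of log2(FPKM + 1) from the 6-library mean for the 31 tested members (upper panel, lines divide the roles) and the median deviation of all tested genes and of marker lists (lower panel); columns are libraries, the 3 labelled Tle134-deficient ones left of the 3 WT ones, and colours are clipped at the ends of the scale. Most enzymes from Aldoa to Ldha are red in both replicate 3 columns, where the monocyte and neutrophil list is also highest (median 2.30 in labelled-deficient replicate 3 and 0.90 in WT replicate 3), and the B-lineage list separates the groups.

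The 5 tested members at the pyruvate and lactate end had differences below 0, and none passed the test; the untested Slc16a3 was higher on average in the labelled-deficient libraries. These 5 differences ran from -0.96 to -0.29, and each moved with single libraries. The Ldha difference turned positive when labelled-deficient replicate 2 (0.16) or WT replicate 3 (0.23) was left out. Dropping WT replicate 3 left -0.01 for Pdha1 and -0.18 for Pdk1. Over the fits that each dropped 1 library, Pdha1 ran from -0.52 to -0.01, Pdk1 from -1.16 to -0.18, Ldhb from -1.12 (labelled-deficient replicate 1 dropped) to -0.31 (labelled-deficient replicate 3 dropped) and Slc16a1 from -1.35 to -0.61 (labelled-deficient replicate 2 dropped). Ldha, the lactate dehydrogenase subunit that favours lactate, was at 48.4, 30.7 and 130.0 FPKM across the labelled-deficient group, against 59.9, 40.5 and 147.3 FPKM in WT (log2 difference -0.29 ± 0.66 SE, adjusted p = 0.961). Ldhb, the heart-type subunit, was at 20.7, 7.27 and 6.07 FPKM across the labelled-deficient group, against 19.3, 9.83 and 19.8 FPKM in WT. Ldha made up 70.0%, 80.8% and 95.5% of the pair in the labelled-deficient group, against 75.6%, 80.5% and 88.1% in WT. The share was highest in replicate 3 of each group.

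Slc16a1, a lactate carrier, was at 3.91, 2.03 and 7.22 FPKM across the labelled-deficient group, against 11.5, 4.65 and 11.8 FPKM in WT (log2 difference -0.96 ± 0.54 SE, adjusted p = 0.64). The groups overlapped only through labelled-deficient replicate 3 and WT replicate 2. Slc16a3, the carrier of highly glycolytic cells, was at 0, 0.953 and 5.67 FPKM across the labelled-deficient group, against 0.394, 0.936 and 0.454 FPKM in WT. Pdk1, a kinase that inhibits pyruvate dehydrogenase, was at 5.07, 8.56 and 8.28 FPKM across the labelled-deficient group, against 5.90, 11.3 and 25.9 FPKM in WT. Its target Pdha1, a subunit of pyruvate dehydrogenase, was at 23.3 to 35.6 FPKM in the labelled-deficient libraries and 24.8 to 51.2 FPKM in WT.

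None of the transcription factors passed the test. Besides Mxd4, these were Myc, Max and Hif1a. Myc was at 19.7, 32.8 and 45.4 FPKM across the labelled-deficient group, against 47.6, 44.2 and 42.1 FPKM in WT. The WT libraries lay close together and labelled-deficient replicate 3 lay within their range, while the other labelled-deficient libraries were below it (log2 difference -0.52 ± 0.43 SE, adjusted p = 0.792). The difference was -0.20 without labelled-deficient replicate 1 and -0.79 without labelled-deficient replicate 3. Max, the partner of Myc, was at 66.1, 16.6 and 28.7 FPKM across the labelled-deficient group, against 15.3, 29.2 and 92.9 FPKM in WT, with no order by group. Hif1a was at 25.3, 16.9 and 15.2 FPKM across the labelled-deficient group, against 25.5, 16.7 and 29.5 FPKM in WT (log2 difference -0.30 ± 0.41 SE, adjusted p = 0.905). The Hif1a difference was -0.14 with WT replicate 3 dropped, -0.16 with labelled-deficient replicate 3 dropped, -0.53 with WT replicate 2 dropped and -0.51 with labelled-deficient replicate 1 dropped.

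The 4 members of amino acid transport and polyamine synthesis had differences above 0, of which none passed. Slc1a5, a glutamine transporter, was at 26.2, 17.4 and 18.9 FPKM across the labelled-deficient group, against 4.65, 14.3 and 18.0 FPKM in WT (log2 difference 0.87 ± 0.51 SE, adjusted p = 0.657). WT replicate 1 was the low library, and the difference was 0.34 without it. Slc7a5 and Slc3a2 encode the light and heavy chains of a leucine transporter. Slc7a5 was at 4.87, 5.04 and 5.98 FPKM across the labelled-deficient group, against 2.48, 6.63 and 5.63 FPKM in WT. Slc3a2 was at 26.2, 38.4 and 26.7 FPKM across the labelled-deficient group, against 13.4, 28.1 and 24.7 FPKM in WT. For all 3 transporters WT replicate 1 held the lowest value of the 6 libraries, and without it the Slc7a5 difference was -0.18.

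The 3 nucleolar genes had differences below 0, and none passed the test. Ncl, which encodes nucleolin, was at 76.8, 56.9 and 154.0 FPKM across the labelled-deficient group, against 73.4, 245.9 and 560.2 FPKM in WT (log2 difference -1.29 ± 0.75 SE, adjusted p = 0.65). In 2 of the libraries its locus was listed together with the small nucleolar RNA gene Snora75, which was at 0 where listed alone. WT replicates 2 and 3 were the highest libraries, and WT replicate 1 lay among the labelled-deficient ones. Without WT replicate 3 the difference was -0.61, and without WT replicate 1 it was -2.07. The deposited interval of WT replicate 3 was 535.4 to 585.0 FPKM. Its bounds imply 2044 fragments, beside 2070 in labelled-deficient replicate 3, where the level was 154.0 FPKM. The higher FPKM was thus not matched by more inferred fragments, and the reason was not tested.

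Npm1, which encodes the nucleolar chaperone nucleophosmin, was at 217.3, 128.7 and 525.1 FPKM across the labelled-deficient group, against 213.8, 189.5 and 632.7 FPKM in WT. Nop56, a core protein of the particles that methylate ribosomal RNA, was at 37.5, 28.7 and 108.7 FPKM across the labelled-deficient group, against 39.8, 39.2 and 96.2 FPKM in WT. Both followed the order of Pgam1 and Ldha, with replicate 3 of each group on top. A list of 40 other ribosome biogenesis and Myc target genes gave 0 calls, with 12 differences above 0, 28 below and a median of -0.20. Its smallest adjusted p was that of Ddx21, a nucleolar helicase gene (0.686), and Cdk4 followed (0.707).

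Other genes of the pathways were read from lists chosen with earlier results of these data known, and none of their genes passed in either direction. Among 22 further enzymes of glycolysis and pyruvate handling, 14 differences lay above 0 and 8 below (median 0.05). Adpgk, an ADP-dependent glucokinase, was at 14.7, 12.6 and 47.5 FPKM across the labelled-deficient group, against 3.09, 8.77 and 7.59 FPKM in WT (log2 difference 1.64 ± 0.58 SE, adjusted p = 0.331). Every labelled-deficient library lay above every WT library. Over the 22 enzymes, 2 were higher without overlap and 1 was lower, beside 8.67% and 6.56% of all genes tested. Pgam2, the muscle mutase, was at 23.5, 9.78 and 9.89 FPKM across the labelled-deficient group and was listed at 0, 0 and 11.5 FPKM in WT (adjusted p = 0.331). Among 7 further glucose and lactate transport genes 4 differences were above 0 and 3 below (median 0.05), with Slc2a6 (adjusted p = 0.591) and Txnip (0.783) first. Among 9 pentose phosphate genes 5 were above 0 and 4 below (median 0.35), with Prps2 (0.519) and Rpia (0.647) first.

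Of 19 genes of the hypoxia pathway 9 differences lay above 0 and 10 below (median -0.04). Hif1an, which encodes the asparagine hydroxylase that inhibits Hif1a, was at 95.9, 41.5 and 16.2 FPKM across the labelled-deficient group, against 4.39, 14.3 and 4.49 FPKM in WT. The groups did not overlap, and the spread within the labelled-deficient group was wide (log2 difference 2.43 ± 0.66 SE, adjusted p = 0.177). Over the 19 genes, 1 was higher without overlap and 4 were lower, beside 8.67% and 6.56% of all genes tested. Epas1, a second hypoxia factor, followed (adjusted p = 0.449). Of 9 other Myc network factors 3 differences lay above 0 and 6 below (median -0.39). The one with the smallest p was Mycn, a Myc relative of progenitor cells, at 4.36, 1.84 and 6.18 FPKM across the labelled-deficient group, against 12.0, 13.7 and 17.4 FPKM in WT (adjusted p = 0.194). Mxi1, a Max-binding repressor counted with Dusp5 at a joined locus, was at 32.6, 45.5 and 32.4 FPKM across the labelled-deficient group, against 46.1, 139.5 and 84.7 FPKM in WT (adjusted p = 0.473).

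The polyamine list held Smox beside Odc1's pathway partners. Smox encodes spermine oxidase, which breaks spermine down. It was at 10.5, 9.72 and 4.83 FPKM across the labelled-deficient group, against 28.9, 22.6 and 20.9 FPKM in WT. Every labelled-deficient library lay below every WT library (log2 difference -1.47 ± 0.42 SE, adjusted p = 0.196). Paox, an oxidase of acetylated polyamines, was at 5.10, 11.4 and 11.1 FPKM across the labelled-deficient group, against 15.4, 15.1 and 20.4 FPKM in WT (adjusted p = 0.557). Over the 10 tested genes of the list, 6 differences lay above 0 and 4 below (median 0.17). Of 9 other amino acid transporters 4 were above 0 and 5 below (median -0.16), with Slc6a6 (adjusted p = 0.595) and Slc7a7 (0.752) first.

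Among the lists read, calls were found only in lineage markers. Of 14 B-lineage markers 9 rose, with summed FPKM of 634.3 to 1073 in the labelled-deficient libraries and 84.4 to 137.4 in WT; 1 or fewer were listed at 0 in a labelled-deficient library and 2 to 4 in a WT library. With labelled-deficient replicate 1 or 2 or WT replicate 1 left out, limma called 0 genes of any kind (877 to 956 at an unadjusted p under 0.05). With the replicate number as a block it called 1 gene as higher in all, and after scaling to the sum of units 3, so most of the 9 calls were lost in both. Of 12 T-lineage markers 0 passed and all 12 differences lay below 0, with sums of 241.9 to 813.6 FPKM in the labelled-deficient libraries and 484.2 to 1247 FPKM in WT. Of 10 stromal and endothelial markers 8 were tested, and only Pdgfrb passed, as lower. The 8 differences were mixed, 5 below 0 and 3 above. Pecam1, which did not pass (limma adjusted p = 0.506), ranged from 30.0 to 39.9 FPKM across the labelled-deficient group. That was above its WT range of 17.3 to 21.7 FPKM. Sums over the 10 markers ran from 41.8 to 90.2 FPKM for the labelled-deficient group and from 80.6 to 219.5 FPKM for WT. Neither dendritic (0 of 6 tested), erythroid (0 of 2), early progenitor (0 of 10) nor cell cycle markers (0 of 20) held a gene past the threshold. The Lin-, TCRb- sort is meant to remove mature blood cells. The marker values are levels of RNA, not counts of cells. Whether the marker levels bear on those of Pfkm, Mxd4, Odc1 and Slc2a1 was not tested.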

How the data were processed

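The authors deposited 1 table of FPKM with a lower and an upper bound for each of 6 libraries, per the file headers, in the layout of a Cufflinks gene tracking table. Trimmomatic 0.38, TopHat2 2.1.1, featureCounts 2.0.1 and the build mm9 are named, with no role stated, per the submitters' processing notes. Sources used here do not state the Cufflinks version, the annotation or the strand setting.

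Rows were summed per symbol, and symbols sharing a row in any library were joined into 1 unit (24318 symbols, 23401 units). Units at 1 FPKM or more in at least 3 libraries were tested (11063). The values log2(FPKM + 1) entered a linear model in limma 3.58.1 (R 4.3.3), group as the only term, with a mean-variance trend and robust empirical Bayes, and p-values were adjusted by Benjamini-Hochberg at 0.05. Fold changes on this scale understate changes of low genes. The script was checked on simulated data. Other steps used Python 3.11.15 and pandas 2.3.3. FPKM is relative to each library's own total, so a very abundant transcript lowers all other values of that library. Read depth is unknown. Fragment numbers are inferred from the bounds and are rough. Gpi1 in WT replicate 3, at 92.2 FPKM, gives 0.1 fragments this way, so some bounds hold more than counting error.

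Per-library values are given for members past the threshold, members whose groups do not overlap, the 6 largest differences and leading members of each role, and for further members by the same form. Of the other lists, the 2 genes with the smallest p are named, with exceptions chosen after their values were seen. The members and lists were chosen with earlier results of these data known. Alternatives changed the pseudocount, filter, scaling, joining, weights, empirical Bayes step, pairing and libraries used. No group had enough libraries for a test of outlying values.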

Additional observations from a re-analysis of the deposited data

How the results depend on the processing

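Of 31 tested members, 0 passed under any alternative, and the smallest adjusted p of any member was 0.237. The median of the member differences ran from -0.44 to 0.28 over the fits that left out 1 library, so its sign was not stable. The pooled SD of the per-library medians within groups was 0.508. Leaving out 1 of 3 libraries can hardly move the median that far, so this SD is no check of stability. Over all genes, limma called 83 with all libraries. The count was 53 with a pseudocount of 0.1, 0 without a filter on low values (1181 at an unadjusted p under 0.05), 4 after scaling to the sum of units (3 higher and 1 lower, against 71 and 12), 125 with array weights, 55 without the trend and robust step, and 21 without both libraries numbered 3. It ran from 0 to 58 when 1 library was left out: 0 when labelled-deficient replicate 1, labelled-deficient 2 or WT replicate 1 was dropped (951, 956 and 877 at an unadjusted p under 0.05), 4 when WT replicate 2 was, and 45 when labelled-deficient replicate 3 was. The cause was not tested.

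With the replicate number as a block 2 genes and 0 members were called. Same-numbered libraries correlated in their deviations from the group means at 0.084, 0.182 and 0.174, so the numbers are not taken to pair them, although every library correlated best with its own number.

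Of 31 members, 15 changed sign when 1 library was left out. Their log2 differences ran from -0.15 to 0.65 for Aldoa, -0.13 to 0.86 for Eno1, -0.70 to 0.12 for Gapdh, -0.34 to 0.82 for Gpi1, -0.11 to 0.41 for Hk1, -0.56 to 0.29 for Hk2, -0.87 to 0.23 for Ldha, -0.70 to 0.56 for Max, -0.68 to 0.31 for Nop56, -0.81 to 0.28 for Npm1, -0.13 to 0.54 for Pfkl, -0.44 to 0.61 for Pgam1, -0.45 to 0.39 for Pkm, -0.18 to 0.38 for Slc7a5 and -0.96 to 0.37 for Tpi1. Without both libraries numbered 3, the members that changed sign were Hif1a (0.0046), Hk1 (-0.0053), Max (0.63) and Slc2a3 (-0.45). In that fit Gapdh (-0.31), Ldha (-0.35), Npm1 (-0.27), Nop56 (-0.26), Aldoa (0.23), Eno1 (0.49) and Pgam1 (0.08) kept the sign they had with all libraries. Hk2 was at 0.0081 with a pseudocount of 5, and Max at 0.084 with array weights. With 3 libraries per group the 95% interval of each of the 31 members reached past 1 log2 unit on at least 1 side, which limits what these data could detect.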
